A study of Mus musculus with 10 samples.

Results

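The genes that make, use and break down phosphoethanolamine were followed in bulk RNA sequencing of whole mouse retinas, with Etnppl at the centre because it was much higher in one group. The set held 9 genes, listed by name and found by GENCODE symbol among 57010 gene identifiers: Etnppl, Phykpl, Etnk1, Etnk2, Pcyt2, Selenoi, Cept1, Pisd and Pemt. Etnppl was selected on its higher level with AAV206-GFP in these same libraries, so its values are described here without a test, and the other 8 genes were chosen for their place in the pathway. Of the 9 genes, 8 passed the filter on low counts, the exception being Pemt, and the fit covered 15539 genes.

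Retinas came from mice aged 6 to 8 weeks and were harvested at day 14 following intravitreal delivery of vector. In the first group 5 mice received AAV2-GFP, an adeno-associated virus vector with the AAV2 capsid that carries green fluorescent protein, and in the second group 5 mice received AAV206-GFP, the same reporter in the capsid named AAV206, which the study sought as a vector for the retinal pigment epithelium (RPE). All 10 mice were thus injected with a GFP vector, and uninjected retinas were not analysed here. With 5 mice and 5 libraries in each group, a library is taken here as 1 mouse. The labels do not state this for each library. The p-values weigh the difference between groups against the spread among libraries of the same group, over these 10 libraries. The strain, the sex and the promoter that drives GFP are not given in the sources used here. Total counts were 10989843 to 12752604 per library. The tissue carried its defining RNA, with 8 rod markers summing to between 53222 and 62777 CPM, the count scaled to a common library size, in every library. AAV2-GFP libraries 1 and 4 stood apart by interferon response genes, which summed to 448 and 609 CPM there and to 82.5 to 150 CPM in the other 8, and counts of called genes are therefore also given without them for the members, the pathway lists together, the glucocorticoid-induced list and the marker lists.

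Phosphatidylethanolamine is a main phospholipid of cell membranes and is abundant in the disc membranes of photoreceptors. In the Kennedy pathway, ethanolamine kinases phosphorylate ethanolamine, Pcyt2 activates the phosphoethanolamine with cytidine, and a phosphotransferase joins it to diacylglycerol. Mitochondria make the same lipid by decarboxylating phosphatidylserine. Etnppl encodes ethanolamine-phosphate phospho-lyase, an enzyme that uses pyridoxal phosphate to split phosphoethanolamine into acetaldehyde, ammonia and phosphate, and so removes the Kennedy pathway intermediate. In the brain Etnppl is known as a gene of astrocytes.

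Etnppl was higher in every AAV206-GFP mouse than in any AAV2-GFP mouse. In the AAV2-GFP mice, in the order of their numbers, its level was 19.1, 16.4, 22.7, 15.9 and 14.4 CPM. In the AAV206-GFP mice it was 51.8, 70.3, 58.9, 51.6 and 52.7 CPM. The groups did not overlap, and the lowest AAV206-GFP mouse lay 2.28 times above the highest AAV2-GFP mouse. The group levels were 17.7 ± 3.24 and 57.1 ± 8.00 CPM (SD, n = 5), a ratio of means of 3.22 and a fitted log2 ratio (AAV206-GFP over AAV2-GFP) of 1.69, with a standard error (SE) of 0.12. The counts behind these levels were 169 to 293 with AAV2-GFP and 575 to 771 with AAV206-GFP, far above the floor of 3 counts (0.235 to 0.273 CPM) under which levels were not distinguished, a floor that covers counting error only. Among 10340 genes averaging 10 CPM or more, the Etnppl difference was the 8th highest by log2 ratio, and among 15191 genes averaging 1 CPM or more it was the 34th. In bulk tissue more cells that express a gene and more RNA per cell cannot be told apart.

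**Figure D1:**
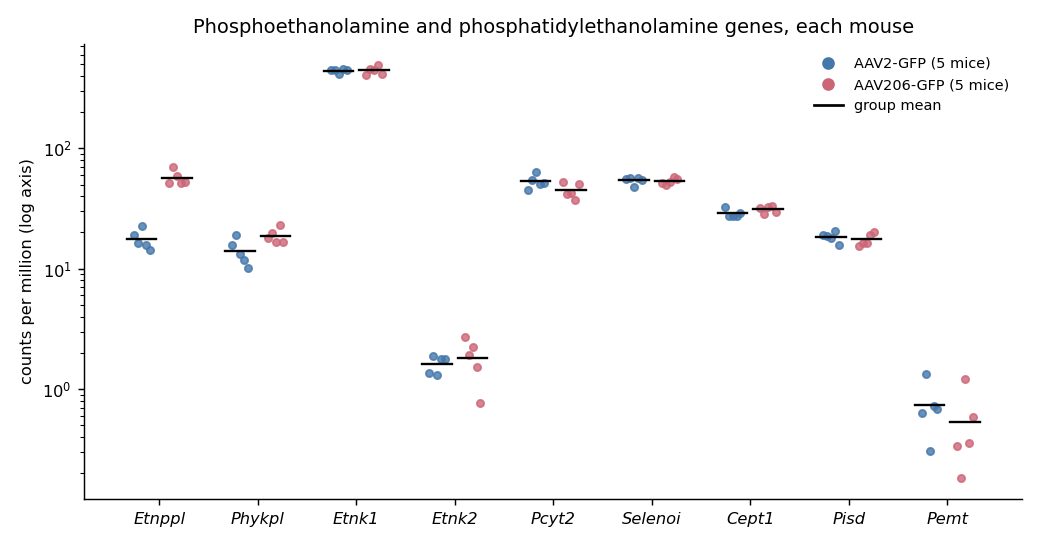
Level of each of the 9 genes in each mouse in CPM on a log axis, with AAV2-GFP in blue, AAV206-GFP in red and black bars at group means. Etnppl is the gene whose 2 groups are apart (14.4 to 22.7 against 51.6 to 70.3 CPM), while the points of the other 8 genes overlap between groups.

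The Etnppl value was free of several ambiguities of counting. Its counts were whole in all 10 libraries, as they are where no read is divided between a gene and another. The gene lies on the plus strand of chromosome 3 at chr3:130617448-130637521 (GRCm38, GENCODE M21) and no other annotated gene overlaps it. The promoter window at its start differed in base composition from those of most other members. RefSeq promoter windows of 300 bases, 250 before and 50 after the start, were found for 8 of the 9 genes in GRCm38.p6. For Etnppl, Cept1, Pisd and Pemt more than 1 window was listed, 13 in all for the members, and the window nearest the annotated gene start was read. The windows of Etnppl (chr3:130617198-130617497, plus strand), of the related lyase Phykpl (chr11:51584531-51584830, plus strand) and of the kinase Etnk1 (chr6:143166980-143167279, plus strand) are shown to let the regulatory sequence of the gene that was higher be read against those of 2 genes whose groups overlapped. Capitals mark CpG dinucleotides.
Etnppl promoter: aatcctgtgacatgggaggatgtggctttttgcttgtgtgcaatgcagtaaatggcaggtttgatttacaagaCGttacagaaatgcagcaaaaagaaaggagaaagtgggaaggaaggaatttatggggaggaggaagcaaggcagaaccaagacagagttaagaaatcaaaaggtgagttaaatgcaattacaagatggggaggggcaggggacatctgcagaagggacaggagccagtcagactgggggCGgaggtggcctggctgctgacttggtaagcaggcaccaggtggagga
Phykpl promoter: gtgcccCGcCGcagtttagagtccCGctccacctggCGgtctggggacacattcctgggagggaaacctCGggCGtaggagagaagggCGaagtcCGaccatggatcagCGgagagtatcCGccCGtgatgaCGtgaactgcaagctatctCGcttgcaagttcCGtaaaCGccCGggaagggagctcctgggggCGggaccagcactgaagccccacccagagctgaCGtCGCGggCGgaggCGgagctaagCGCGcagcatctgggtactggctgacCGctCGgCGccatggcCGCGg
Etnk1 promoter: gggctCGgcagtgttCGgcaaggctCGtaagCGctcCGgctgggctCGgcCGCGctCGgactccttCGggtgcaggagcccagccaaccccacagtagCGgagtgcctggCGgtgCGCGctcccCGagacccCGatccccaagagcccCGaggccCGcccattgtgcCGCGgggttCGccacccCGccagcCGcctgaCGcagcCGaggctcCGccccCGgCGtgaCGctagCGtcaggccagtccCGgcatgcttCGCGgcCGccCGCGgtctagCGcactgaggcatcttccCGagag
The Etnppl window held 2 CpG dinucleotides and 49.3% G and C, and 14.1% of all 32851 windows held fewer. Phykpl held 29 and Etnk1 held 38, and the windows of Etnk2, Selenoi, Cept1 and Pisd held 21, 26, 24 and 34, against a median of 7 over all windows. Pemt, with 3, was the other member poor in CpG in this window. The second Etnppl window also held 2, with 56.7% G and C, while further windows of Cept1 held 0 and 27 and that of Pisd held 5. Both strands were searched for the palindromic sequence of the glucocorticoid receptor, AGAACA followed after 3 bases of any kind by TGTTCT, which matched none of the 13 windows of members and 0.00913% of all windows. Its part AGAACA, which lies within the longer motif, was found in 1 window of Cept1 and in the second window of Pemt, in neither window of Etnppl, and in 19% of all windows. The letters TATAAA and CACGTG were not found in the 13 member windows, and 13.6% and 7.15% of all windows held them. These matches describe letters in a short window and were not tested as binding sites.

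None of the other members passed the threshold. In edgeR's quasi-likelihood test 0 of the 7 tested members besides Etnppl had an adjusted p-value under 0.05, where 11.2% of all 15539 genes did. Unadjusted p-values were under 0.05 for 2, Phykpl and Pcyt2, and 28% of all genes reached that level. DESeq2 and limma-voom also called 0 of the 7, where they called 15.2% and 10.6% of all genes they tested. None of the 7 had groups free of overlap, a state found in 9.78% of all genes (5.41% with AAV206-GFP above and 4.37% with it below). Their median log2 ratio was 0.0074, beside -0.0095 over all genes tested. Without AAV2-GFP libraries 1 and 4 the count was again 0, where 6.18% of all genes passed. The call of Phykpl depended on AAV2-GFP library 2, since without that library it passed and the count was 1.

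Phykpl is the closest relative of Etnppl among the members and encodes 5-phosphohydroxy-L-lysine phospho-lyase, which performs the like reaction on a product of collagen breakdown. Its level with AAV2-GFP was 15.7, 19.0, 13.3, 11.8 and 10.2 CPM. With AAV206-GFP it was 17.9, 19.8, 16.6, 23.3 and 16.7 CPM. The AAV2-GFP mouse at 19.0 CPM lay among the AAV206-GFP mice, and the other 4 lay below all of them. The means were 14 ± 3.47 and 18.8 ± 2.79 CPM (SD, n = 5), with a log2 ratio of 0.43 (SE 0.15) and an adjusted p of 0.0837 (edgeR). Leaving out AAV2-GFP library 2 gave 0.56 and an adjusted p of 0.0224 (edgeR). Phykpl counts carried decimals in 8 libraries, so reads shared with another gene leave its level uncertain. It overlaps Hnrnpab, annotated on the opposite strand, and whether the counting used strand is not given in the sources used here. Hnrnpab itself had a log2 ratio of -0.17 (edgeR adjusted p = 0.136). Hykk, the kinase that makes the Phykpl substrate from hydroxylysine, was at 4.87 ± 0.616 and 5.01 ± 0.877 CPM (SD, n = 5), with an edgeR adjusted p of 0.900.

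The ethanolamine kinases, which make phosphoethanolamine, were unlike each other in level and did not pass the test. Etnk1 was the most abundant member, at 414 to 454 CPM with AAV2-GFP and 402 to 494 CPM with AAV206-GFP. Its means of 441 ± 15.6 and 443 ± 36.5 CPM (SD, n = 5) gave a log2 ratio of 0.0074 (SE 0.062, edgeR adjusted p = 0.955). Etnk2, the second kinase, lay at 1.31 to 1.89 and 0.763 to 2.69 CPM, with a log2 ratio of 0.17 (SE 0.32, edgeR adjusted p = 0.761). Etnk2 rested on 9 to 32 counts per library, which left it the widest standard error of the tested members. The sign of Etnk1 changed in 3 of the fits without a single library and that of Etnk2 in 1.

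Pcyt2, which makes CDP-ethanolamine from phosphoethanolamine, had the most negative estimate of the tested members, Pemt not being among these. With AAV2-GFP it was at 45.0, 54.8, 63.0, 50.6 and 51.8 CPM. With AAV206-GFP it was at 52.4, 42.0, 42.5, 37.0 and 50.9 CPM. AAV206-GFP mice 1 and 5 lay within the AAV2-GFP range and the other 3 below it. The means were 53.0 ± 6.61 and 45.0 ± 6.47 CPM (SD, n = 5), with a log2 ratio of -0.24 (SE 0.10) and an adjusted p of 0.142 (edgeR). Without AAV2-GFP libraries 1 and 4 the log2 ratio was -0.34 and the adjusted p 0.0792 (edgeR).

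The phosphotransferases of the last step did not pass the test. Selenoi, the selenoprotein ethanolamine phosphotransferase, was at 54.4 ± 3.82 and 53.3 ± 3.19 CPM (SD, n = 5), giving a log2 ratio of -0.027 (SE 0.068, edgeR adjusted p = 0.832). Cept1, which transfers both choline and ethanolamine, was at 28.8 ± 2.19 and 31.1 ± 2.06 CPM (SD, n = 5), giving a log2 ratio of 0.11 (SE 0.078, edgeR adjusted p = 0.362). Cept1 counts carried decimals in 4 libraries, and its ends overlap Dennd2d and Dram2 on the opposite strand. The sign of Selenoi changed when AAV206-GFP library 2 was left out (0.00080), and when AAV2-GFP libraries 1 and 4 were left out (0.0022).

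The genes of routes beside the Kennedy pathway had overlapping groups. Pisd, the mitochondrial phosphatidylserine decarboxylase, was at 18.4 ± 1.68 and 17.5 ± 2.11 CPM (SD, n = 5), with a log2 ratio of -0.074 (SE 0.11, edgeR adjusted p = 0.689). Pisd counts were whole in every library, although its copy Pisd-ps2 carried decimals in 9 libraries. Pisd-ps2 lay at 1.24 ± 0.410 and 0.907 ± 0.479 CPM (SD, n = 5; edgeR adjusted p = 0.460). Pemt, which methylates phosphatidylethanolamine to phosphatidylcholine and is best known from liver, had 2 to 15 counts per library. It was at 0.309 to 1.35 CPM with AAV2-GFP and 0.182 to 1.21 CPM with AAV206-GFP, in part under the floor, and so did not enter the fit.

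Set on a common scale per length of transcript, the order of the members showed where Etnppl stands. Levels were expressed as CPM per kilobase of merged annotated exons, which does not take into account which transcripts the retina uses. With AAV2-GFP the order from high to low was Etnk1 (31.2 ± 1.10), Pcyt2 (12.2 ± 1.52), Cept1 (9.24 ± 0.702), Selenoi (4.14 ± 0.290), Pisd (3.21 ± 0.292), Etnppl (2.14 ± 0.392), Phykpl (1.44 ± 0.358), Etnk2 (0.356 ± 0.0588) and Pemt (0.352 ± 0.179 CPM per kilobase; SD, n = 5). The ranges of Pcyt2 and Cept1, of Etnppl and Phykpl, and of Etnk2 and Pemt overlapped, and the other neighbours in this order were separate. With AAV206-GFP Etnppl stood 4th, at 6.91 ± 0.969 CPM per kilobase (SD, n = 5), between Cept1 at 9.99 ± 0.660 and Selenoi at 4.06 ± 0.243, and its range was separate from both. By the longest transcript Etnppl was at 12.8 ± 1.79 CPM per kilobase with AAV206-GFP and Cept1 at 11.1 ± 0.731 (SD, n = 5), which placed Etnppl 3rd, with overlapping ranges. With AAV2-GFP it was 6th by each of the 3 length definitions used.

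**Figure D2:**
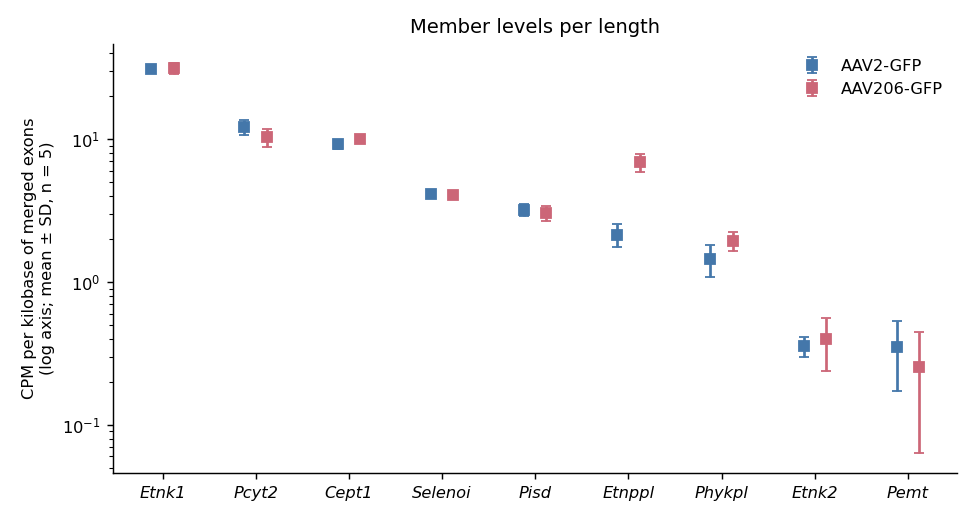
Level of each gene in CPM per kilobase of merged exons on a log axis, as mean ± SD of 5 mice, ordered by the AAV2-GFP mean. Etnppl moves from 2.14 to 6.91, past Pisd and Selenoi, while the other genes keep their order.

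The wider pathway was read from 9 lists with 57 tested genes. Of these, 4 rose and 1 fell in the edgeR test, together 8.77%, beside 11.2% of all genes, so the share called was near the background. Their median log2 ratio was 0.039, with 29 estimates above 0 and 28 below. Without AAV2-GFP libraries 1 and 4 the count was 2, where 6.18% of all genes passed. Over the 10 fits that each left out a library it was 2 to 5. It fell to 2 or 3 in every such fit but those without AAV2-GFP library 1 or AAV206-GFP library 5.

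Lclat1, an acyltransferase of the endoplasmic reticulum that remodels phospholipids, rose from 44.3 ± 1.94 to 55.6 ± 4.40 CPM (SD, n = 5), giving a log2 ratio of 0.33 (SE 0.068, edgeR adjusted p = 0.00649). Its groups did not overlap, and it passed in all 21 alternatives tried. Agpat3, an acyltransferase of phosphatidic acid synthesis, rose from 1904 ± 123 to 2275 ± 77.8 CPM (SD, n = 5), giving a log2 ratio of 0.26 (edgeR adjusted p = 0.00660). It passed in 20 of 21 alternatives, the exception being the fit without AAV2-GFP libraries 1 and 4, and its counts carried decimals in 9 libraries. Agpat1, of the same enzyme family, fell from 59.1 ± 5.73 to 48.9 ± 3.40 CPM (SD, n = 5), giving a log2 ratio of -0.27 (edgeR adjusted p = 0.0320), with overlapping groups and a pass in 12 of 21 alternatives.

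In the choline branch 1 of 11 tested genes passed the threshold, beside 11.2% of all genes, while 8 of the 11 estimates were above 0. The gene that passed was Pcyt1b, the choline counterpart of Pcyt2. It rose from 27.9 ± 2.54 to 33.2 ± 1.19 CPM (SD, n = 5), giving a log2 ratio of 0.25 (edgeR adjusted p = 0.0462). Gpcpd1, which splits glycerophosphocholine, rose from 52.1 ± 3.54 to 60.2 ± 2.85 CPM (SD, n = 5; log2 ratio 0.21, edgeR adjusted p = 0.0489). Both lay close to the threshold and passed in 8 and 6 of 21 alternatives. Among 9 genes listed around ethanolamine release from acylethanolamines and glycerophosphodiesters, Gpcpd1 was the only gene to pass in this fit, where 11.2% of all genes did. The enzymes of this list do not all free ethanolamine.

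The genes listed around phosphoethanolamine release from sphingolipids had estimates below 0 in 6 of 6 cases, from -0.13 to -0.28. Over all 15539 genes 8048 estimates were below 0. The list mixes enzymes that do not all act towards release, so its shared sign is not a measure of supply. Of these genes 0 passed with edgeR. Unadjusted p-values were under 0.05 for 3 of these 6, beside 28% of all genes. The most abundant of them, Sgpp1, a sphingosine-1-phosphate phosphatase, was at 78.1 ± 4.35 and 69.6 ± 7.75 CPM (SD, n = 5; edgeR adjusted p = 0.161). No gene passed among 2 of phosphatidylserine synthesis, 7 of ether lipid synthesis and 4 that transfer phosphoethanolamine to GPI anchors, where 0, 2 and 1 had an unadjusted p-value under 0.05, against the same 28%. Their most abundant genes Ptdss1, Far1 and Pigo had log2 ratios at 0.098, 0.11 and 0.15 (edgeR adjusted p = 0.429, 0.254 and 0.299).

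**Figure D3:**
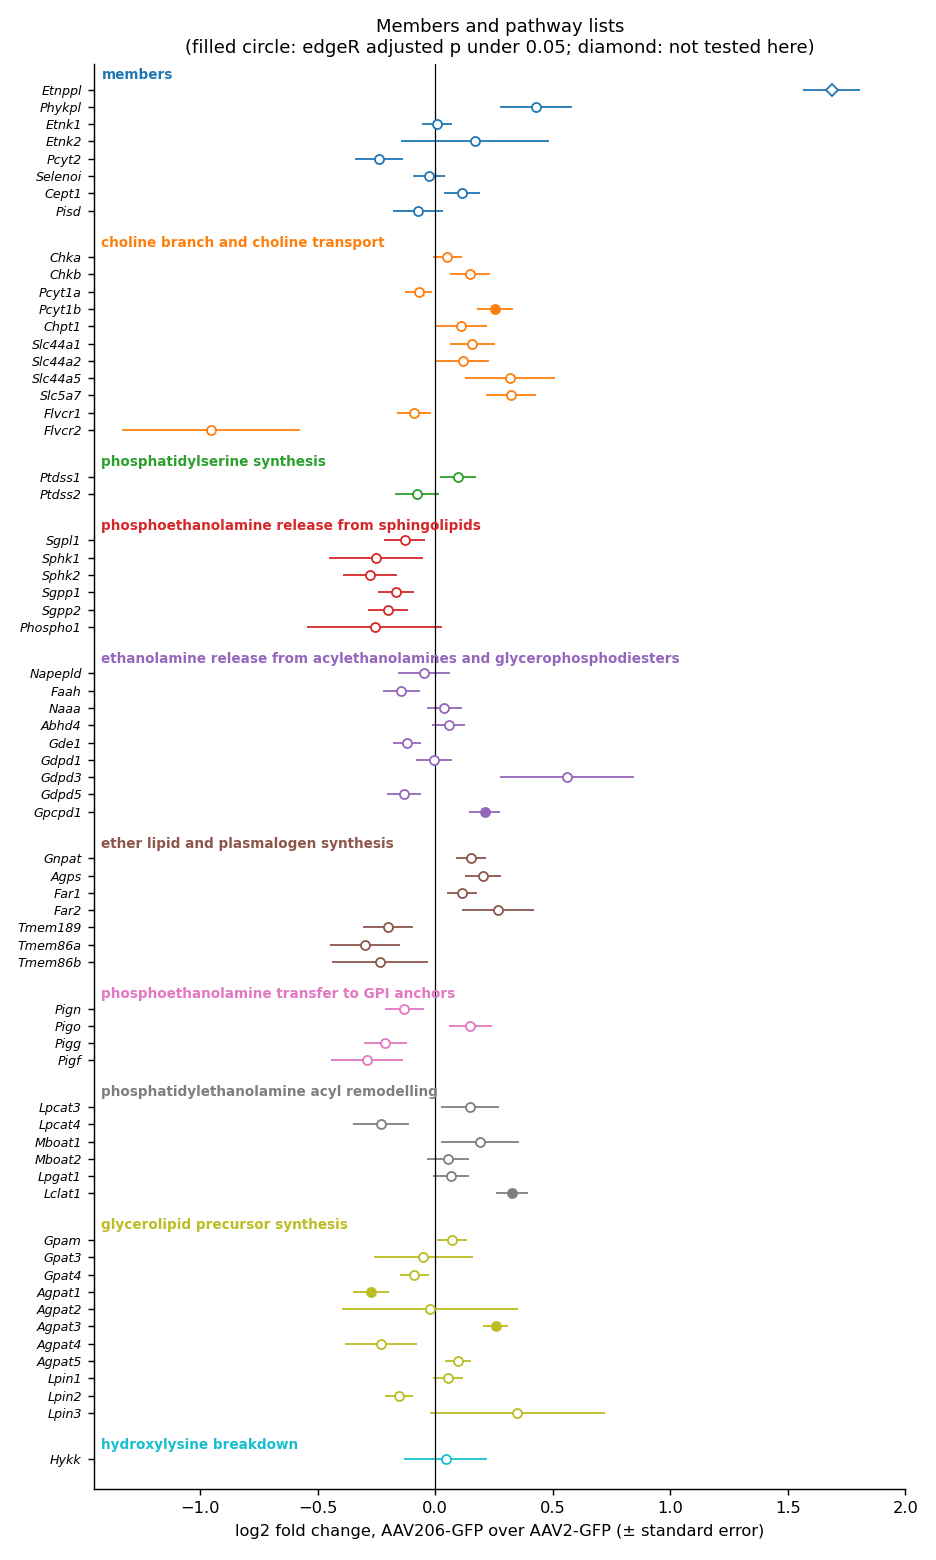
Fitted log2 ratio of AAV206-GFP over AAV2-GFP with its standard error for 8 members and 57 genes of the pathway lists. Filled circles passed at an edgeR adjusted p under 0.05, and Etnppl, the diamond at 1.69, was not tested; the 5 filled circles lie between -0.27 and 0.33.

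Genes known from hormone responses were read beside Etnppl. Of a list of 16 genes known to be induced by glucocorticoid hormones, 15 were tested and 8 rose with AAV206-GFP while 0 fell, against 5.95% of all genes that rose and 5.3% that fell. The 8 were Hif3a, Fkbp5, Arrdc2, Mt2, Klf9, Zbtb16, Angptl4 and Plin4, and the groups did not overlap in 6 of them, a pattern in that direction found in 5.41% of all genes. The median log2 ratio over the 15 was 0.42, beside -0.0095 over all genes. The list was chosen with earlier results of these data known, so its share beside that of all genes is a description and not an independent test. Many of these genes also answer to other signals such as fasting, hypoxia or the time of day, and Etnppl was not a member of the list. Without AAV2-GFP libraries 1 and 4 the count was 6, where 6.18% of all genes passed in either direction. It was 5 without AAV2-GFP library 3 and 5 without AAV206-GFP library 5, and 5 with the replicate number as a block.

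Hif3a, a subunit of hypoxia-inducible factor, was at 6.24, 4.85, 4.18, 5.08 and 5.98 CPM with AAV2-GFP. With AAV206-GFP it was at 19.0, 12.5, 12.4, 19.2 and 11.9 CPM. Its log2 ratio was 1.51 (SE 0.18, edgeR adjusted p = 6.7e-05), and every AAV206-GFP mouse lay above every AAV2-GFP mouse. Fkbp5, a co-chaperone of the glucocorticoid receptor, was at 22.8, 22.7, 22.3, 24.1 and 21.1 CPM with AAV2-GFP. With AAV206-GFP it was at 35.8, 32.1, 33.6, 38.8 and 39.5 CPM, again with no overlap. Its log2 ratio was 0.67 (SE 0.080, edgeR adjusted p = 7.8e-05). Arrdc2, an arrestin-domain protein, rose from 10.5 ± 0.735 to 20.7 ± 4.88 CPM (SD, n = 5; log2 ratio 0.98, edgeR adjusted p = 0.000383).

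The remaining 5 risers are named after their values were seen. Mt2, a metallothionein, and the transcription factor Klf9 had log2 ratios at 0.89 and 0.26 (edgeR adjusted p = 0.00123 and 0.0174) and, like Hif3a, Fkbp5 and Arrdc2, passed in all 21 alternatives. Angptl4, a secreted inhibitor of lipoprotein lipase, was at 0.723 ± 0.266 and 1.94 ± 0.801 CPM (SD, n = 5; log2 ratio 1.41, edgeR adjusted p = 0.0248), and passed in 16 of 21 alternatives. Zbtb16 and the lipid droplet gene Plin4 had log2 ratios at 0.92 and 1.00 (edgeR adjusted p = 0.0301 and 0.0404), with overlapping groups and passes in 14 and 10 of 21 alternatives. Sgk1, the most abundant gene of the list and a kinase named for its glucocorticoid induction, was at 503 ± 16.2 and 473 ± 39.3 CPM (SD, n = 5; edgeR adjusted p = 0.365). Tsc22d3, Per1, Ddit4, Errfi1, Mt1 and Cdkn1a also missed the threshold, at log2 ratios of -0.034, 0.13, -0.034, -0.0021, 0.26 and 0.42.

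**Figure D4:**
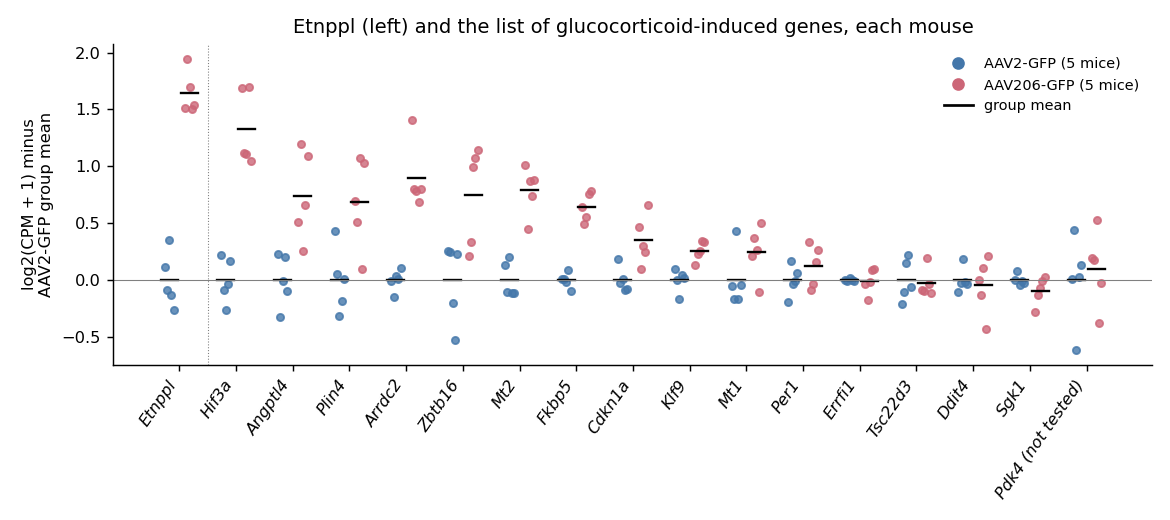
Level of Etnppl and of 16 glucocorticoid-induced genes in each mouse, as log2(CPM + 1) minus the mean of the AAV2-GFP group (blue; AAV206-GFP in red; black bars are group means). The AAV206-GFP mice lie above all AAV2-GFP mice for Etnppl and for Hif3a, Angptl4, Arrdc2, Mt2, Fkbp5 and Klf9, while genes such as Sgk1 and Tsc22d3 overlap.

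No marker of Müller glia or astrocytes passed the test. Of 15 tested Müller glia markers 0 passed in edgeR, where 11.2% of all genes did. Unadjusted p-values were under 0.05 for 9 of them, or 60%, beside 28% of all genes, and for 5 without AAV2-GFP libraries 1 and 4, where 23.1% of all genes reached that level. Of the 15 estimates 12 were below 0, with a median log2 ratio of -0.18. Kcnj10, a potassium channel named after its values were seen, was the 1 marker whose groups did not overlap, at 73.7 ± 2.80 and 64.8 ± 4.40 CPM (SD, n = 5; edgeR adjusted p = 0.0649). Their summed level was 4401 to 5425 CPM with AAV2-GFP and 3993 to 4739 CPM with AAV206-GFP, and none was at 0 in all libraries. Glul, glutamine synthetase, the most abundant, was at 1863 ± 275 and 1784 ± 118 CPM (SD, n = 5). Of 8 tested astrocyte markers 0 passed in edgeR, with 6 estimates above 0 and 2 below. The 1 with an unadjusted p-value under 0.05 was Gja1, named after its values were seen. It was at 4.76 ± 1.77 and 9.38 ± 5.17 CPM (SD, n = 5; log2 ratio 0.98, edgeR adjusted p = 0.107), with overlapping groups. Gfap varied widely within both groups, at 19.2 to 66.2 CPM with AAV2-GFP and 6.29 to 59.5 CPM with AAV206-GFP. Without AAV2-GFP libraries 1 and 4 no marker of these lists passed in edgeR either, where 6.18% of all genes did. Unadjusted p-values were then under 0.05 for 5 Müller glia markers and 0 astrocyte markers. The 9 listed astrocyte markers summed to 480 to 537 CPM and 494 to 563 CPM. Slc1a2, a glutamate transporter and the most abundant of these, was at 426 ± 21.9 and 444 ± 12.3 CPM (SD, n = 5). The mean sums were 516 and 537 CPM, so the sum mainly follows Slc1a2 and says little about the other listed markers. It is not read here as a level of astrocytes.

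Some markers of other cells and of tissue carried over differed between the groups, while others were high in single libraries. In the counts that follow, 5.95% of all genes were higher and 5.3% lower, and without AAV2-GFP libraries 1 and 4 these shares were 3.32% and 2.85%. The summed erythrocyte markers were at 67.8 to 85.8 CPM with AAV2-GFP and 101 to 319 CPM with AAV206-GFP, with 4 of 5 tested genes higher, and 4 without those libraries. Endothelial markers summed to 206 to 236 and 170 to 195 CPM with 2 of 7 lower, and 1 without them. Lens markers summed to 14.1 to 33.2 and 1.60 to 16.9 CPM, ranges that overlap, with 2 of 4 lower, and 2 without them. Among the erythrocyte markers, the globin genes carried decimals in all 10 libraries, so reads were divided between genes. Their calls may therefore not be separate observations.

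Interferon response genes summed to 82.5 to 609 and 85.4 to 109 CPM with 6 of 8 lower, and 0 of 8 without AAV2-GFP libraries 1 and 4 (edgeR, with 2 at an unadjusted p-value under 0.05). Their sums in AAV2-GFP libraries 2 and 5, at 86.9 and 82.5 CPM, lay within or below the AAV206-GFP range. Microglia and macrophage markers summed to 191 CPM in AAV2-GFP library 1, to 22.3 to 38.2 CPM in the other 4 and to 18.5 to 24.1 CPM with AAV206-GFP. In that list 1 of 7 was lower, and 0 of 7 without the 2 libraries (edgeR, with 1 at an unadjusted p-value under 0.05). RPE markers had overlapping sums of 14.8 to 44.2 and 17.4 to 26.0 CPM, with 1 of 7 lower in both fits. Of 8 rod markers 2 were higher, and 1 without the 2 libraries. None of these listed genes was at 0 in all libraries, and their part in the Etnppl difference was not tested. Without AAV2-GFP libraries 1 and 4, which carry the high interferon response levels, the Etnppl log2 ratio was 1.66 (1.69 with them).

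**Figure D5:**
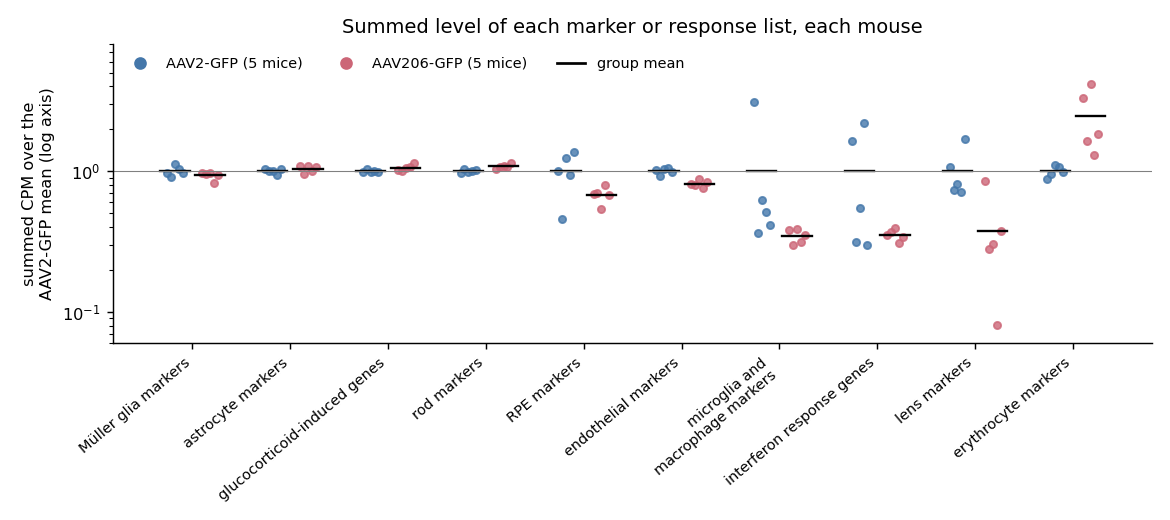
Summed CPM of each marker or response list in each mouse, divided by the mean of the AAV2-GFP mice, on a log axis (blue AAV2-GFP, red AAV206-GFP, black bars group means). Müller glia and astrocyte sums overlap between groups, the latter sum mainly following Slc1a2. Erythrocyte sums are higher (101 to 319 against 67.8 to 85.8 CPM) and endothelial sums lower with AAV206-GFP.

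The genes whose profile over the 10 libraries was most like that of Etnppl were sought among 14957 named genes averaging 1 CPM or more. Likeness was the root mean square difference in log2(CPM + 1) after subtracting the mean of each gene, so a small value means a like step between mice, and the median over all genes was 0.864. The 5 nearest were Olig3 (0.250), Gm20139 (0.292), AC166748.1 (0.303), C2cd6 (0.303) and Arsg (0.307). Each had a level that was higher in all AAV206-GFP mice. The measure includes the step between groups for which Etnppl was chosen, so genes near it share that step by construction. Arsg, a lysosomal sulfatase, was at 15.9 ± 2.52 and 37.3 ± 3.70 CPM (SD, n = 5). Gm20139, an uncharacterised gene, was at 9.66 ± 1.86 and 39.4 ± 4.95 CPM (SD, n = 5). Olig3, a transcription factor gene, had 0.841 ± 0.294 CPM with AAV2-GFP, close to the floor, and 3.60 ± 0.742 CPM with AAV206-GFP (SD, n = 5). With log2(CPM + 0.1) 3 of the 5 were again among the nearest. Of the glucocorticoid-induced genes compared, the nearest, Hif3a, ranked 39th by this measure (0.411), Klf9 ranked 1468th and the farthest, Sgk1, ranked 9358th. Among the other members compared, the nearest, Phykpl, ranked 611th (0.668) and the farthest, Pcyt2, ranked 12573rd.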

How the data were processed

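RNA from 10 mouse retinas was sequenced, 5 after AAV2-GFP and 5 after AAV206-GFP, as read pairs of 150 bases, per the labels' protocols. The authors deposited estimated counts per gene, unscaled, of which 5.95% carried decimals. The submitters' processing notes name STAR 2.7.10b, RSEM 1.3.1 and mm10, and the annotation is not given in the sources used here. Of the identifiers, 91.3% were named by GENCODE M21 (GRCm38).

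Counts were rounded, filtered with filterByExpr (minimum count 10) and scaled with TMM factors. The quasi-likelihood F test of edgeR 4.0.16 (R 4.3.3) compared the groups without covariates. Adjusted p-values are Benjamini-Hochberg values over all 15539 tested genes, with a threshold of 0.05. The standard error is the absolute log2 ratio over the square root of F. Positive values denote higher levels with AAV206-GFP, and CPM are counts scaled by the TMM-adjusted library size with the cpm function of edgeR. The scripts were tested on simulated data. Labels gave both groups the numbers 1 to 5, but same-numbered libraries did not deviate together.

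The members and lists were chosen with earlier results of these data known. Besides members, the rule named pathway genes past the threshold or the most abundant gene of a list, up to 3 genes per marker list, and the 5 genes most like Etnppl. The marker lists were mostly given as sums. The 5 genes most like Etnppl within groups are in the closing section. Alternatives covered scaling, filters, DESeq2 1.42.0, limma-voom (limma 3.58.1), robust dispersions, rounding, a replicate block and libraries left out. Coordinates are GRCm38 positions from GENCODE M21 and RefSeq.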

Additional observations from a re-analysis of the deposited data

Results flagged for a closer look

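In 96 group results examined, 7 had a mouse far from the other 4 in its group, judged by the distance to the next mouse as a share of the group's range, where about 4.8 would be reached by chance at the 1 in 20 level used. AAV2-GFP replicate 3 accounted for 3 of them. It was low for Etnk1 (414 against 443 to 454 CPM) and for Selenoi (47.6 against 55.02 to 56.7 CPM), and high for Mt1 (25.8 against 16.8 to 18.3 CPM). The same mouse had the highest Etnppl level of its group.

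Arrdc2 was high in AAV206-GFP replicate 1 (29.4 against 17.5 to 19.0 CPM), and Tsc22d3 was high in AAV206-GFP replicate 3 (33.2 against 26.7 to 28.3 CPM). The summed Müller glia markers were low in AAV206-GFP replicate 4 (3993 against 4542 to 4739 CPM). The summed microglia and macrophage markers were high in AAV2-GFP replicate 1 (191 against 22.3 to 38.2 CPM).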

How the results depend on the processing

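The Etnppl log2 ratio lay between 1.60 and 1.79 in all 21 alternatives. The number of other members past the threshold was 0 to 1 over the 10 fits that left out a library, the 1 being Phykpl without AAV2-GFP replicate 2, and 0 in the 11 other alternatives. The number of other pathway genes, 5 in the reported fit, was 2 to 5 when a library was left out, 3 with every gene with any count, 3 with robust dispersions, 6 with DESeq2, 2 without AAV2-GFP libraries 1 and 4, and 2 with the replicate block. The number of glucocorticoid-induced genes, 8 in the reported fit, was 5 to 8 when a library was left out and 5 with the replicate block; these alternatives were applied after its count was seen. The replicate block changed no call among the members. Correlations of same-numbered libraries lay between -0.052 and 0.040, and 0 of 5 numbers had its best match under the same number, so the numbers were not taken to pair mice. Near-zero log2 ratios changed sign, within ranges over single libraries left out of -0.035 to 0.041 for Etnk1, -0.013 to 0.37 for Etnk2 and -0.072 to 0.00080 for Selenoi: Etnk1 (-0.015, -0.0039 and -0.035) without AAV2-GFP replicate 3 and AAV206-GFP replicates 2 and 4, Etnk2 (-0.013) without AAV206-GFP replicate 1, and Selenoi (0.00080 without AAV206-GFP replicate 2 and 0.0022 without AAV2-GFP libraries 1 and 4). The order of members per length changed for 2 genes by the longest transcript and for up to 4 by the mean transcript. Depth limits Pemt and Etnk2. With every gene with any count kept, Pemt had a log2 ratio of -0.45 (SE 0.57, edgeR adjusted p = 0.666).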

Other observations

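Around Etnppl, GENCODE M21 places 25 other genes within 500 kb, of which 4 were tested, all of them protein-coding. Col25a1, a transmembrane collagen whose end lies 17.6 kb away, was at 15.6 ± 1.67 and 17.2 ± 3.80 CPM (SD, n = 5; edgeR adjusted p = 0.523). Ostc, an oligosaccharyltransferase subunit 58.4 kb away, fell from 32.0 ± 3.84 to 25.0 ± 1.96 CPM (SD, n = 5), giving a log2 ratio of -0.36 (SE 0.093, edgeR adjusted p = 0.0232). The ribosomal protein gene Rpl34, 89.3 kb away, had a log2 ratio of -0.37 (edgeR adjusted p = 0.0507), and Lef1, 473 kb away, had -0.36 (edgeR adjusted p = 0.552). None of the 4 had an edgeR adjusted p under 0.05 in the direction of Etnppl, where 5.95% of all tested genes did. With 4 genes such a count says little. The window was chosen after the Etnppl values were seen.

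When the mean of each group was subtracted, so that only the spread among mice of a group was compared, the genes nearest to Etnppl were Atp5e (root mean square difference 0.0848), Dcun1d5 (0.0850), Timm8b (0.0857), Ssr4 (0.0905) and Gm45441 (0.0939), against a median of 0.243 over all genes. None of these 5 was among the 5 nearest by the profile over all 10 libraries.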
